A study of Fraxinus excelsior with 182 samples.

Results

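The genes described here were the 100 genes with the highest mean TPM over the leaves of 182 trees of European ash (Fraxinus excelsior). TPM is the abundance of a gene per 1000000 transcripts in a tree, after division by coding length. They were chosen by their mean TPM alone, as the first 100 of 42665 gene models in that order, or 0.234% of them, so the mean levels are given only as a description. All 100 passed the filter on low values, at least 1 TPM in at least 19 trees, as did 31003 genes in all.

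The leaves came from 182 Danish accessions, named by Ash numbers, with 1 library of 100 bp Illumina reads for each tree. The labels give the tissue and the tree and name no treatment, genotype, age or damage class, so all 182 trees formed 1 group. Each tree is a single library, and the spread given is that between trees. The labels offer no marker by which the leaf tissue could be checked.

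The trees are listed in nearly ascending order of Ash number up to Ash217, after which the numbers restart at Ash1 for the last 40 trees. The labels do not say what this restart stands for. The 40 later trees and those listed before them, called here the earlier trees, differed in the levels of the 100 genes, so results are also given within each of these sets, which are not groups of the study. Whatever separates the sets cannot be told apart from differences between their trees.

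Leaf messenger RNA is commonly led by a small set of very abundant transcripts, many of which encode parts of the photosynthetic machinery or proteins of stress and wound responses in plants. Because TPM has a fixed sum in every tree, a gene that takes a larger share leaves less for the others. The identifiers of the 100 genes carry no name in the data. Fe_g32180 alone had an annotation among those the study gives for its damage-associated genes, and no role is stated for the other members.

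The 100 genes held 19.3% ± 2.18 (SD, n = 182) of the TPM of a tree. Their share was lowest in Ash53, at 15.4%, had a median of 18.8% and was highest in Ash94, at 30.8%. The 100 genes that follow them in mean TPM held 6.59% ± 0.447 (SD, n = 182). The share of the most abundant genes therefore ranged more widely over the trees than that of the next 100, which ran between 5.31% and 7.87%. In the 40 later trees the 100 genes held a median of 20.3%, and in the earlier trees 18.7%. The 10 leading members held 5.70% ± 2.16 (SD, n = 182), between 3.19% in Ash53 and 16.98% in Ash94.

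Mean levels within the 100 spanned 8.28-fold. The threshold fell in a dense stretch of values: Fe_g26628 at 849.7 TPM and Fe_g18715 at 848.4 TPM were the last inside it. Fe_g26321 at 847.1 TPM and Fe_g45814 at 845.6 TPM were the first outside.

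Fe_g32504 had the highest mean level, 7027 ± 3878 TPM (SD, n = 182). Its lowest value was 261 TPM in Ash94, its median 6345 TPM and its highest 21607 TPM in Ash137. It was above 1000 TPM in 180 of the 182 trees. Fe_g25603 followed at 6829 ± 9172 TPM (SD, n = 182), with an SD larger than its mean. Its lowest value was 65.4 TPM in Ash72, its median 3286 TPM and its highest 56308 TPM in Ash94. A high level of Fe_g25603 was thus the property of a minority of trees: 37 trees exceeded 10000 TPM and 17 exceeded 20000 TPM.

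Fe_g15315 was at 6676 ± 2525 TPM (SD, n = 182), from 2621 TPM in Ash57 through a median of 6193 TPM to 14101 TPM in Ash132. Fe_g8233 was at 6282 ± 1965 TPM (SD, n = 182), from 2436 TPM in Ash49 through a median of 6023 TPM to 14475 TPM in Ash218. Both were among the 100 most abundant genes of every tree. Fe_g25602.2 was at 5921 ± 7894 TPM (SD, n = 182), with a low of 41.4 TPM in Ash72, a median of 2911 TPM and a high of 48515 TPM in Ash94. Fe_g14287 was at 5823 ± 3560 TPM (SD, n = 182), between 1719 TPM in Ash137 and 20181 TPM in Ash94, with a median of 4532 TPM. In these 4 genes the median lay below the mean, least so in Fe_g8233.

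Fe_g19537 was at 4888 ± 1997 TPM (SD, n = 182), with a low of 931 TPM in Ash114, a median of 5100 TPM and a high of 8732 TPM in Ash72. Fe_g34637 was at 4632 ± 2513 TPM (SD, n = 182), with a low of 2.09 TPM in Ash94, a median of 4839 TPM and a high of 10210 TPM in Ash57. These genes had the opposite skew, with medians above their means and a tail of low trees. Fe_g34637 was under 100 TPM in 12 trees and under 10 TPM in 5. Fe_g14288 was at 4598 ± 3103 TPM (SD, n = 182), between 1373 TPM in Ash137 and 18479 TPM in Ash94, with a median of 3379 TPM. Fe_g22190 was at 4311 ± 1990 TPM (SD, n = 182), between 1400 TPM in Ash137 and 10676 TPM in Ash132, with a median of 3883 TPM. Both were among the 100 most abundant genes in all 182 trees.

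**Figure D1:**
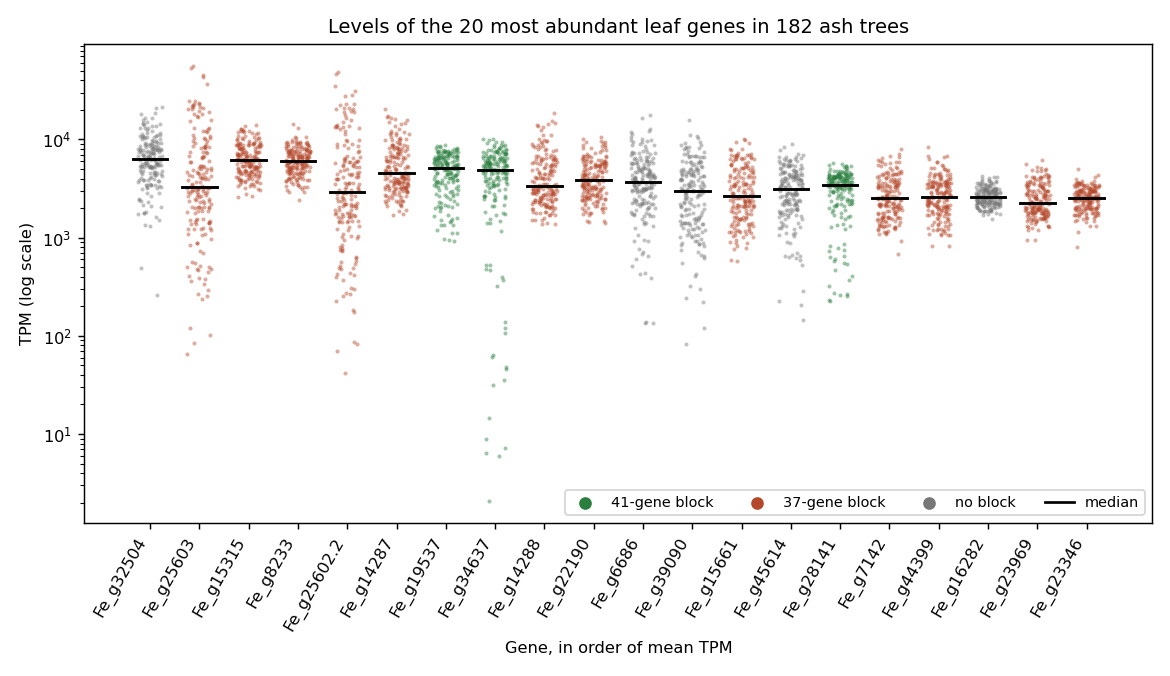
Level of each of the 20 most abundant leaf genes in 182 ash trees, in TPM on a log scale, with 1 point per tree and a black line at the median, coloured by the block a gene belongs to. Fe_g25603 and Fe_g25602.2 spread over the widest range upwards, to 56308 and 48515 TPM, whereas Fe_g34637 has a tail down to 2.09 TPM.

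The trees did not all share the same leading gene. Among the members, 12 were the most abundant in at least 1 tree. Fe_g32504 led in 51 trees, Fe_g25603 in 32, Fe_g8233 in 22, Fe_g19537 in 21, Fe_g34637 in 13, Fe_g15315 in 12 and Fe_g14287 in 10. Fe_g25602.2 and Fe_g39090 led in 8 trees each, Fe_g6686 and Fe_g22589 in 2 each and Fe_g30395 in 1. In Ash67 a gene outside the 100, Fe_g37360, named here after its values were seen, exceeded every member at 12094 TPM, against a median of 333 TPM over the trees.

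Fe_g39090 was at 3468 ± 2554 TPM (SD, n = 182), with a low of 82.5 TPM in Ash94, a median of 2983 TPM and a high of 15657 TPM in Ash65. Fe_g22589 was at 1992 ± 1484 TPM (SD, n = 182), with a low of 21.7 TPM in Ash148, a median of 1565 TPM and a high of 8393 TPM in Ash209. Fe_g30395 was at 2191 ± 1040 TPM (SD, n = 182), with a low of 56.5 TPM in Ash7, a median of 2307 TPM and a high of 7170 TPM in Ash30. Each of these led only in trees where it was above its own median.

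Membership of the 100 was steadier in some genes than in others. In each tree the 100 most abundant genes were also found directly and set against the members. A median of 78.5 members were among them, with a low of 43 in Ash94 and a high of 92 in Ash198. Over all trees 386 genes entered a tree's own 100 most abundant, 286 of which were not members. Only 9 genes did so in every tree, and all 9 were members. In at least 150 trees 44 members did so, and 12 members did so in fewer than 91.

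The coefficient of variation (CV, SD over mean) of the 100 genes had a median of 42.1%, against 38.8% in the next 100 genes and 38.02% in all genes tested. It ranged from 10.96% to 160.8%. A CV of 100% or more was found in 5 of the 100 genes, in 3 of the next 100 and in 3748 of the 31003. A CV of 20% or less was found in 8 of the 100, in 11 of the next 100 and in 3852 of the 31003. High abundance thus came with both steady and unsteady genes, and no member split the trees into separate clusters by level.

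The most variable member was Fe_g33152, with a CV of 160.8%, a low of 20.7 TPM in Ash137, a median of 403 TPM and a high of 9678 TPM in Ash94. Fe_g27663 had a CV of 157.8%, a low of 8.12 TPM in Ash61, a median of 366 TPM and a high of 10579 TPM in Ash112. Both owed their place among the 100 to the trees in which they were high, and they were in a tree's own 100 most abundant genes in 50 and 64 trees. Fe_g25603, Fe_g25602.2 and Fe_g11556 followed, with CVs of 134.3%, 133.3% and 121.1%. Fe_g11556 ran from 60.9 TPM in Ash137 through a median of 683 TPM to 10069 TPM in Ash18.

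At the other end, Fe_g7284 had a CV of 10.96%, with a low of 572 TPM in Ash159, a median of 985 TPM and a high of 1223 TPM in Ash16. Fe_g12521 had a CV of 13.8% and ran from 989 TPM in Ash28 through a median of 1365 TPM to 1898 TPM in Ash53. Fe_g17604 and Fe_g287 had CVs of 14.5% and 15.6%. Fe_g4340 had a CV of 17.6% and was the most abundant of these 5 steady genes, with a median of 2603 TPM and a place in the 100 most abundant genes of all 182 trees.

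**Figure D2:**
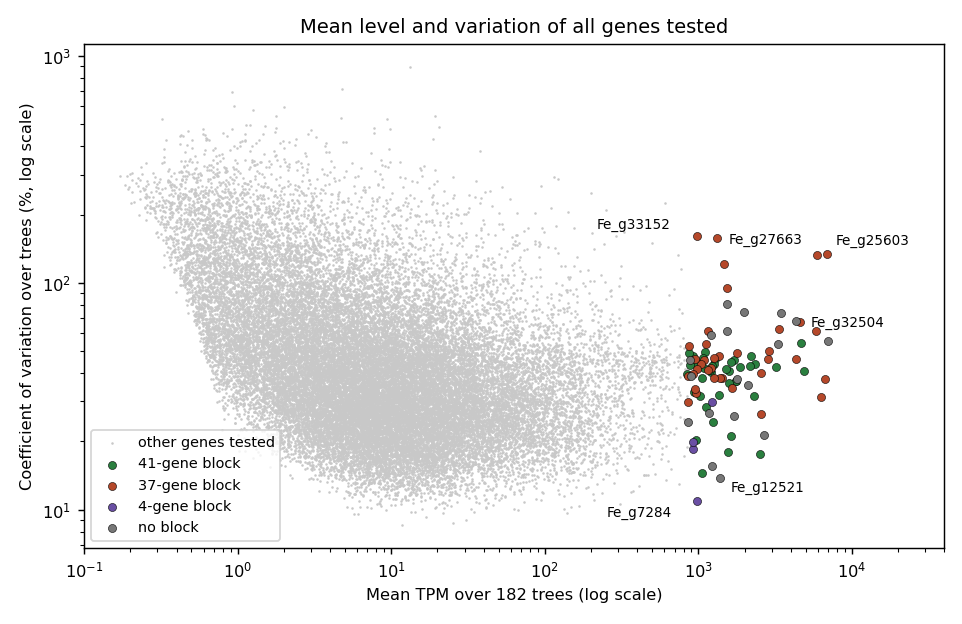
Mean TPM over 182 trees against coefficient of variation in percent, both on log scales, for the 31003 genes tested, with the 100 most abundant genes coloured by block. The members run from 10.96% for Fe_g7284 to 160.8% for Fe_g33152, and the 5 members at or above 100% are all in the 37-gene block.

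Levels of the 100 genes were related over the trees by Spearman's rho, the correlation of ranks (n = 182 for every pair). Of the 4950 pairs, 1437 (29.03%) had a rho of 0.5 or more and 1270 (25.7%) a rho of -0.5 or less. The pairs of the next 100 genes gave 26.3% and 21.01%, and those of all genes tested gave 5.84% and 4.13%. The high shares were therefore found in the next 100 genes as well. As many as 640 pairs had a rho of at least 0.8 and 295 a rho of -0.8 or less.

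Average-linkage clustering, which joins genes while their mean rho stays at 0.5 or more, left 3 blocks of 3 or more genes. They held 41, 37 and 4 genes, and 18 genes were in none. The blocks were formed from these same values and are a description with no test. Complete linkage, which asks every pair in a block to reach 0.5, broke them into 7 blocks, in which at most 32 of the 41 and 19 of the 37 genes stayed together. Within the 41-gene block rho had a median of 0.784 and ran from 0.303 to 0.985. Within the 37-gene block it had a median of 0.721 and ran from 0.159 to 0.983. All 1517 pairs with a gene from each of these blocks had a rho below 0, with a median of -0.688, and 1236 of them were at -0.5 or less.

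**Figure D3:**
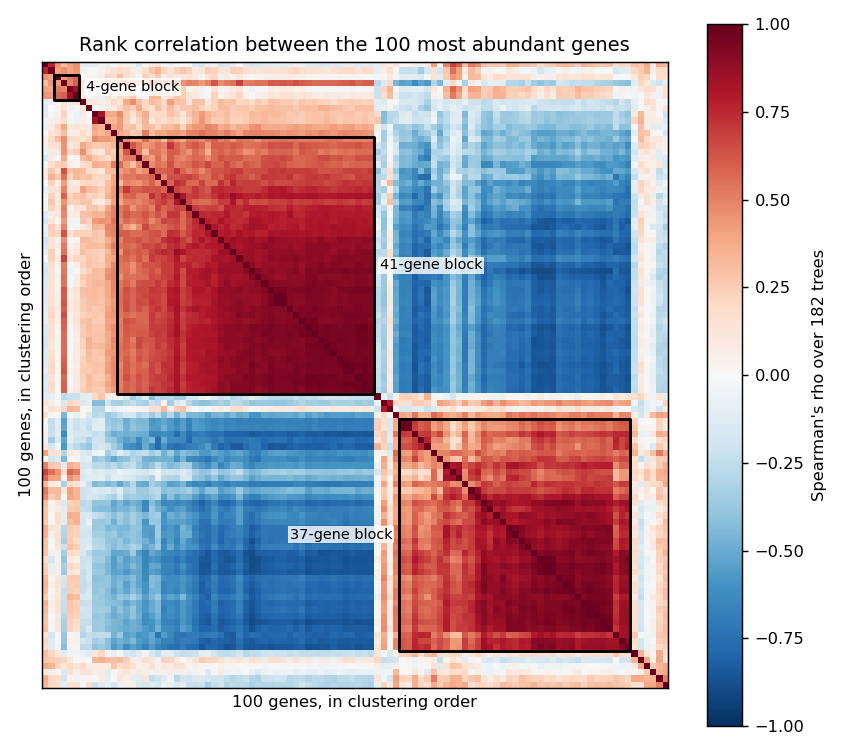
Spearman's rho over 182 trees between all pairs of the 100 most abundant genes, in clustering order, from -1 (blue) to 1 (red), with frames around the 3 blocks. Pairs within the 41-gene and 37-gene blocks are positive, with medians of 0.784 and 0.721, and all 1517 pairs between these blocks are negative.

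The blocks were also formed in a part of the trees and read in the rest, and the opposition was again found. Blocks formed in the 92 trees with odd Ash numbers had 41 and 37 genes, of which 40 and 37 were in the blocks of all trees. In the 90 trees with even numbers these had a median rho of 0.783 and 0.709 within, and of -0.691 between. Of the pairs between them 1512 of 1517 were below 0. Blocks formed in the even-numbered trees had 43 and 36 genes. In the odd-numbered trees they gave 0.741 and 0.760 within and -0.678 between, with 1545 of 1548 pairs below 0. The members had been chosen by their mean TPM over all trees. Odd and even numbers both occur among the later trees, so a difference between later and earlier trees enters both parts. The split therefore gives no check apart from that difference, and results within each set are given below.

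Since TPM has a fixed sum, the levels were also expressed relative to the TPM outside the 100 genes. All 1517 pairs were again below 0, with a median rho of -0.677. After rescaling by median-of-ratios factors, which set the typical gene to the same level in each tree, 1510 pairs were below 0, with a median of -0.594. Genes outside the 100 that follow the blocks remain in both scales, and the part of the fixed sum in the opposition was not tested.

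The 41-gene block was led by Fe_g19537, Fe_g34637 and Fe_g28141. Fe_g28141 was at 3177 ± 1350 TPM (SD, n = 182), with a low of 228 TPM in Ash18, a median of 3473 TPM and a high of 5812 TPM in Ash30. The block held 2 of the 10 and 3 of the 20 most abundant genes, and its median CV was 41.5%. The 37-gene block was led by Fe_g25603, Fe_g15315 and Fe_g8233. It held 7 of the 10 and 12 of the 20 most abundant genes, with a median CV of 46.04%, and included all 5 members with a CV of 100% or more. The 22 genes in neither block had a median CV of 36.5%.

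The closest pair of all was Fe_g1718 and Fe_g36632, both of the 41-gene block, with a rho of 0.985. Fe_g1718 was at 1624 ± 725 TPM and Fe_g36632 at 885 ± 386 TPM (SD, n = 182). In the same block Fe_g17498 had a rho of 0.972 with Fe_g23765 and of 0.971 with Fe_g20589. The remaining pairs among the 5 closest, Fe_g25603 with Fe_g25602.2 and Fe_g14287 with Fe_g14288, had adjacent identifiers. As these pairs were picked for their values, no test is attached.

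The 5 most opposed pairs all included Fe_g20630, of the 41-gene block. Fe_g20630 was at 1090 ± 458 TPM (SD, n = 182), with a low of 211.95 TPM in Ash114, a median of 1107 TPM and a high of 2136 TPM in Ash78. Its rho was -0.897 with Fe_g7142, -0.895 with Fe_g14287, -0.892 with Fe_g11556, -0.891 with Fe_g30361 and -0.889 with Fe_g14288, all of the 37-gene block. Fe_g7142 was at 2873 ± 1434 TPM (SD, n = 182), and the tree in which it was lowest, Ash78 at 675 TPM, was the one in which Fe_g20630 was highest. Fe_g30361 was at 1774 ± 869 TPM (SD, n = 182), from 586 TPM in Ash137 to 5260 TPM in Ash94. In the odd-numbered and in the even-numbered trees the 5 pairs were at or below -0.864. As the pairs were picked for their values over these same trees, the values in either part are no separate check.

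Summed over their genes, the 41-gene block held 6.54% ± 2.30 (SD, n = 182) of the TPM of a tree. It ran from 1.32% in Ash94 through a median of 6.93% to 10.4% in Ash205. The 37-gene block held 8.42% ± 4.36 (SD, n = 182), from 2.74% in Ash61 through a median of 6.92% to 27.3% in Ash94. The other 22 members held 4.31% ± 0.898 (SD, n = 182). The 37-gene block held more than the 41-gene block in 88 trees and less in 94. The ratio of their shares ran from 0.270 in Ash61 to 20.6 in Ash94, with a median of 0.952.

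Over the trees the shares of both blocks had a rho of -0.920 and a Pearson's r of -0.919. The rho was -0.938 in the 91 trees with the lower Ash numbers and -0.905 in the 91 with the higher numbers. The trade was not even, however, and the share of all 100 genes had a rho of 0.785 with the share of the 37-gene block and of -0.587 with that of the 41-gene block. Trees with a large 37-gene block thus had a larger share in the 100 genes altogether. The share of the 100 genes includes that of the block, so a positive rho is in part built in. The share of the 37-gene block had a rho of 0.084 with the Ash number and of 0.013 with the number of genes above 0 TPM, and that of the 41-gene block had values of 0.008 and -0.10.

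The blocks also differed between the trees listed after and before the restart of the Ash numbers. The 37-gene block held a median of 11.7% (lowest 4.57%, highest 27.3%) in the 40 later trees, against 6.29% (lowest 2.74%, highest 18.4%) in the earlier trees. The 41-gene block held a median of 4.76% (lowest 1.32%, highest 8.72%) in the 40 later trees, against 7.44% (lowest 1.56%, highest 10.4%) in the earlier trees. The sets overlapped, but the 37-gene block was the larger one in 33 of the 40 later trees and in 55 of the earlier trees. By its median, every one of the 37 genes was higher and every one of the 41 genes was lower in the 40 later trees than in the earlier trees. The blocks were formed over both sets of trees together, so this agreement within a block follows in part from the clustering. The same count over all genes tested was not made, so it cannot be read as particular to the blocks. The levels were not rescaled here. The median-of-ratios factor had a median of 0.994 in the 40 later trees and of 1.036 in the earlier trees. The ratio of the medians ran from 1.06 to 7.59 in the 37-gene block and from 0.404 to 0.953 in the 41-gene block.

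Within each set the blocks of all trees remained opposed. As they were formed over both sets together, this opposition is in part built in. The rho between their shares was -0.920 in the 40 later trees and -0.879 in the earlier trees, and r was -0.872 and -0.921. Of the 1517 pairs between the blocks, 1413 were below 0 in the 40 later trees and all were in the earlier trees, with medians of -0.669 and -0.637. When blocks were formed anew in the earlier trees, 36 of the 41 genes and all 37 of the other block again stood in 1 block each. In the 40 later trees all 41 genes did so, but at most 28 of the 37. The looser 37-gene block in the 40 later trees had a median rho within it of 0.579, against 0.755 in the earlier trees.

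**Figure D4:**
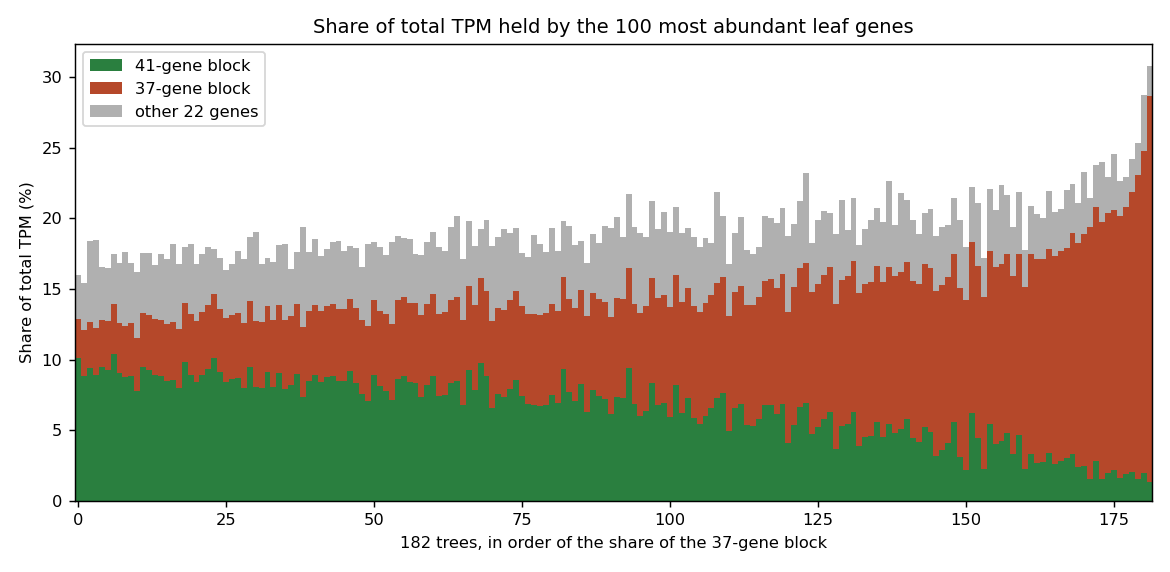
Share of total TPM, in percent, held by the 41-gene block, the 37-gene block and the other 22 members in each of 182 trees, stacked and ordered by the share of the 37-gene block. From left to right the 37-gene block widens up to 27.3% while the 41-gene block narrows to 1.32%, and the total is highest in Ash94, at 30.8%.

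**Figure D5:**
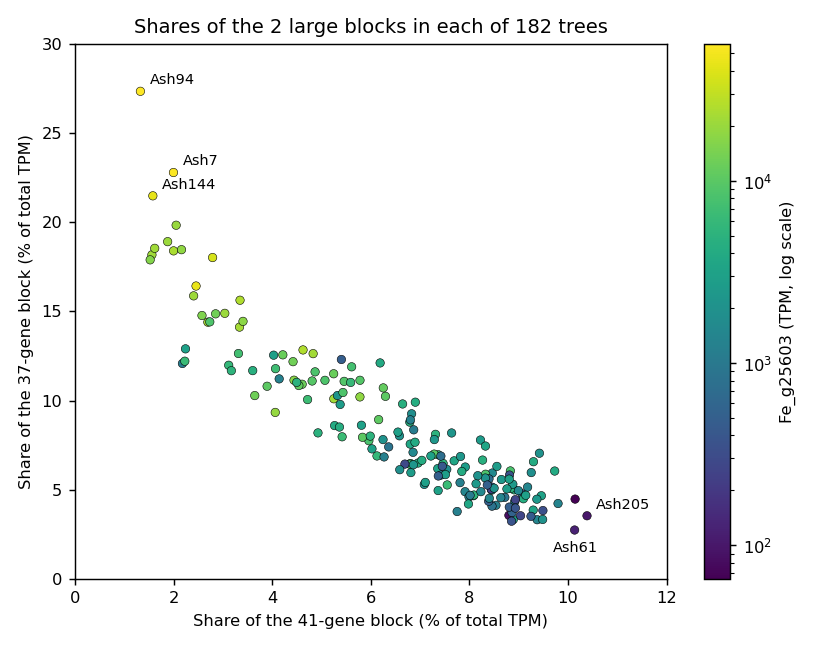
Share of total TPM in the 41-gene block against that in the 37-gene block, both in percent, with 1 point per tree coloured by the level of Fe_g25603 in TPM on a log scale. The shares fall along a curve with a rho of -0.920, from Ash94 at 1.32% and 27.3% to Ash61, where the 37-gene block is at 2.74%.

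The contrast between the blocks was also seen outside the 100 genes. The first principal component of the 100 standardized genes took 59.5% of their variance, and that of all genes tested took 30.5%. The ratio of the block shares had an absolute rho of 0.994 with the component of the 100 genes and of 0.971 with that of all genes. The 100 genes include those of both blocks, so the first of these values is largely built in. All genes tested include the 100 as well. Outside the 100, 5346 of 30903 genes (17.3%) had a mean rho of 0.5 or more with the genes of the 41-gene block, and 2949 (9.54%) with those of the 37-gene block. Among the next 100 genes these numbers were 43 and 27. When the ranks were adjusted for 5 principal components of all genes, 299 pairs of members had a rho of 0.5 or more, 297 of them among the 1437, and 9 had a rho of -0.5 or less. The first component alone, which nearly coincided with the ratio of the blocks, left 744 and 65 such pairs. The median rho between the blocks was then -0.246, and within them it was 0.299 for the 41 genes and 0.566 for the 37.

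The 4-gene block held Fe_g25098, Fe_g7284, Fe_g44945 and Fe_g32180, with a median rho of 0.542. Fe_g32180 is annotated as coproporphyrinogen-III oxidase (CPX), an enzyme of the pathway that makes the precursors of heme and chlorophyll. It was at 923 ± 183 TPM (SD, n = 182), with a low of 515 TPM in Ash127, a median of 906 TPM and a high of 1580 TPM in Ash82. Fe_g44945 was its closest member, with a rho of 0.838, and ran from 509 TPM in Ash126 through a median of 926 TPM to 1605 TPM, also in Ash82. Fe_g25098 was at 1220 ± 362 TPM (SD, n = 182) and had a mean rho of 0.540 with the genes of the 41-gene block. Fe_g7284 and Fe_g32180 had mean values of 0.076 and 0.12 with that block, and of 0.10 and 0.15 with the 37-gene block.

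Fe_g32504, the most abundant gene of all, belonged to no block. Its closest gene among all tested was another member in no block, Fe_g6686, with a rho of 0.831. Fe_g6686 was at 4290 ± 2900 TPM (SD, n = 182), with a low of 134.2 TPM in Ash94, a median of 3674 TPM and a high of 17839 TPM in Ash137. Both genes were thus lowest in one tree and highest in another that they shared. The next closest were outside the 100, Fe_g6687, whose identifier is adjacent to that of Fe_g6686, at a rho of 0.587 and Fe_g11868 at 0.542. In all, 14 of the tested genes had a rho of 0.5 or more with Fe_g32504 and 6 a rho of -0.5 or less. For Fe_g25603 these numbers were 2982 and 4341, and for Fe_g19537 they were 6176 and 5704. After Fe_g25602.2, the genes most like Fe_g25603 were Fe_g10036.1 and Fe_g30804, both outside the 100, with a rho of 0.736 and 0.733.

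Some other members outside the large blocks, named here after their values were seen, formed pairs. Fe_g13241 and Fe_g692 had a rho of 0.791, and Fe_g45614 and Fe_g33469 a rho of 0.760. The steady genes Fe_g12521 and Fe_g287 had no member closer than a rho of 0.368 and 0.463.

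A total of 3 pairs of members had adjacent identifiers, all within the 37-gene block. Fe_g25603 exceeded Fe_g25602.2 by a median ratio of 1.20, with a range over trees from 0.530 to 1.88, and their rho was 0.983. Fe_g14287 exceeded Fe_g14288 by a median ratio of 1.28, with a range from 0.976 to 1.74, and their rho was 0.979. Fe_g23346 exceeded Fe_g23347 by a median ratio of 3.05, with a range from 1.07 to 4.06, and their rho was 0.893. In the first 2 pairs the ratio moved little beside the levels. These ran from 65.4 to 56308 TPM for Fe_g25603 and from 1719 to 20181 TPM for Fe_g14287. This did not hold for Fe_g23346 and Fe_g23347, whose levels had narrower ranges, from 809 to 4960 TPM and from 356 to 1653 TPM. The quantification divides reads that match similar coding sequences, and as the sequences were not compared, it is not known whether that touched these pairs.

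A few genes dominated some of the trees. The summed share of the 3 most abundant members averaged 2.98% ± 1.57 (SD, n = 182), with a low of 1.70% in Ash49, a median of 2.52% and a high of 12.50% in Ash94. In 16 trees they held at least 5%, and in 2 at least 10%. The 10 highest trees were Ash94 at 12.50%, Ash7 at 11.4%, Ash144 at 9.02%, Ash185 at 8.95%, Ash173 at 7.71%, Ash121 at 6.18%, Ash181 at 6.06%, Ash168 at 5.92%, Ash18 at 5.69% and Ash40 at 5.66%. Fe_g25603 led in 8 of these trees and Fe_g25602.2 in the other 2. Both were among the leading 3 in 9 of the 10, and Fe_g14287 was among them in 6. Of the 10 trees 6 were among the 40 later trees and 4 among the earlier trees. Fe_g25603 exceeded 10000 TPM in 15 of the 40 later trees, with a median of 7324 TPM, and in 22 of the earlier trees, with a median of 2786 TPM.

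The evenness of the 100 genes was expressed as an effective number, the count of equally abundant genes that would give the same concentration. It was 53.1 ± 12.9 (SD, n = 182), with a high of 68.7 in Ash8 and a low of 13.3 in Ash94. Ash7 was next at 13.6 and Ash185 followed at 14.1. In Ash94 Fe_g25603 alone took 5.63% of all TPM. There 10 of the 37 genes of its block were at their highest over the 182 trees. Of the 41 genes of the other block 17 were at their lowest. Ash94 was picked as an extreme tree and the same counts over all genes tested were not made. The counts are therefore no result about the blocks. The median-of-ratios factor of Ash94 was also the lowest of all trees, at 0.678, so a typical gene was listed lower there. In Ash7 Fe_g25603 was at 53466 TPM and Fe_g25602.2 at 46316 TPM, and Fe_g32504, at its minimum of 261 TPM in Ash94, was at 14536 TPM. Without Ash94 and Ash7 the highest share of the 100 genes in a tree was 25.3%, and the rho between the shares of the blocks was -0.917.

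Co-expression with the leading genes was tested over all 31002 other genes in limma, with the standardized log2(TPM + 1) of 1 gene as the only covariate. The question was which members changed with the level of that gene. With rising Fe_g32504, 52 of the 99 other members rose and 36 fell at an adjusted p of 0.05 or less, or 52.5% and 36.4% of them. Of all genes tested 38.8% rose and 22.8% fell. All 41 genes of the 41-gene block rose, with a median r of 0.448, and 33 of the 37 genes of the other block fell, with a median r of -0.417. After median-of-ratios scaling 9373 of all genes rose with Fe_g32504 and 9393 fell, against 12014 and 7066 as deposited, and 47 members rose and 38 fell. With 5 principal components as covariates 16 members rose and 3 fell, against 2.36% and 3.96% of all genes tested. With 1 component 11 rose and 4 fell, against 8.64% and 2.84%. In the 40 later trees 49 members rose and 26 fell, against 28.6% and 9.88% of all genes tested. In the earlier trees 21 rose and 29 fell, against 10.3% and 11.7% of all genes tested. The lower count of rising members in the earlier trees thus went with a lower share over all genes. With the place before or after the restart as a covariate the counts were 48 and 32, against 31% and 16.2%.

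The gene of highest r with Fe_g32504 was Fe_g6686, which rose by 1.02 ± 0.04 (SE) on the log2 scale per SD of Fe_g32504 at an r of 0.866 (n = 182, limma, adjusted p = 5.34e-52). Fe_g40123, of the 41-gene block, was next, rising by 0.90 ± 0.08 (SE) per SD at an r of 0.635 (limma, adjusted p = 5.06e-18). Fe_g40123 had a median of 1102 TPM and a low of 1.59 TPM in Ash94. The lowest r were those of genes outside the 100, Fe_g10574 at -0.587 (limma, adjusted p = 3.94e-15) and Fe_g10921 at -0.580 (limma, adjusted p = 1.04e-14).

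With rising Fe_g25603, 40 of the 99 other members rose and 49 fell, against 34.9% and 37.4% of all genes tested (limma, adjusted p of 0.05 or less). The 40 were 40.4% of the members and the 49 were 49.5%. All 36 other genes of its own block were among the 40, and all 41 genes of the opposed block were among the 49, with a median r of 0.540 and -0.670. As Fe_g25603 helped to form its block, these directions follow in part from the clustering. Fe_g25602.2 had the highest r, 0.988, and rose by 1.89 ± 0.02 (SE) per SD (limma, adjusted p = 1.00e-145). Fe_g4312, outside the 100, was next at 0.735 (limma, adjusted p = 1.93e-28). The lowest r were those of Fe_g3076 at -0.725 (limma, adjusted p = 2.50e-27) and Fe_g19572.2 at -0.722 (limma, adjusted p = 5.13e-27), also outside the 100. With 5 principal components as covariates 1 member rose and 0 fell in limma, where 8 members had an unadjusted p under 0.05. Of all genes tested 0.0129% rose and 0.0226% fell in that fit. With 1 component 6 members rose and 0 fell, where 17 had an unadjusted p under 0.05, against 1.63% and 0.523% of all genes tested. In the 40 later trees 16 members rose and 48 fell, against 10.2% and 25.7% of all genes tested. In the earlier trees 42 rose and 45 fell, against 35.5% and 30.3%. With the place as a covariate 39 rose and 48 fell, against 33.6% and 33.6%. The lower count of rising members in the 40 later trees thus went with a lower share over all genes.

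The relation between the 2 most abundant genes passed one test, missed the other and was near 0 in the earlier trees. In limma their r was -0.200, with an adjusted p of 0.0122 and 0.0100 in the fits with Fe_g32504 and Fe_g25603 as covariate. With 5 principal components as covariates their slopes turned positive, at 0.25 (limma, adjusted p = 0.215) for Fe_g25603 and 0.16 (limma, adjusted p = 0.415) for Fe_g32504. With 1 component the slopes were 0.34 (limma, adjusted p = 0.0328) for Fe_g25603 and 0.24 (limma, adjusted p = 0.0799) for Fe_g32504. In the earlier trees the slope of Fe_g25603 was 0.0054 (limma, adjusted p = 0.985). That of Fe_g32504 was 0.0023 there (limma, adjusted p = 0.977). On TPM their rho was -0.141 (n = 182, permutation p = 0.058, adjusted p = 0.062) and their r was -0.105 (permutation p = 0.16, adjusted p = 0.16), while leaving out 2 trees gave an r of -0.140, those farthest from the median of Fe_g32504. Without these trees rho was -0.158 and passed (permutation test, adjusted p = 0.0356). That p was adjusted over 45 tests of rho alone. The permutation p-values over all trees were adjusted over 90 tests of rho and r, so the 2 adjustments are unlike.

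All 45 pairs among the 10 most abundant genes were compared on TPM by rho and r with two-sided permutation tests, and p was adjusted over the 90 tests. By rho 24 pairs were positively and 18 negatively related, and 3 did not pass. By r these counts were 22 and 18. By rho they were 17 and 16 in the 40 later trees and 23 and 18 in the earlier trees. The lowest rho was that of Fe_g19537 and Fe_g14288. Their rho of -0.877 and Pearson's r of -0.839 both had a permutation p of 1e-05, the smallest that can be reached, and an adjusted p of 1.2e-05 (n = 182). Leaving out the 2 trees farthest from the median of Fe_g19537 gave an r of -0.832. Fe_g19537 and Fe_g34637 rose together, at rho = 0.809 and r = 0.829, with the same permutation p and adjusted p, and at r = 0.822 with 2 such trees left out. Fe_g32504 and Fe_g34637 also rose together, at rho = 0.428 and r = 0.405, again with the same p values, and at r = 0.444 with 2 trees left out.

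The pairs that did not pass by rho were those of Fe_g32504 with Fe_g25603, Fe_g8233 and Fe_g25602.2. Fe_g8233 stood apart from the leading pair of its own block. Its rho with Fe_g25603 was 0.186 (permutation p = 0.012, adjusted p = 0.014), whereas r was 0.00093 (permutation p = 0.99, adjusted p = 0.99) and -0.0023 without 2 trees. Its rho with Fe_g25602.2 was 0.171 (permutation p = 0.022, adjusted p = 0.024), whereas r was -0.0025 (permutation p = 0.97, adjusted p = 0.99) and 0.019 without 2 trees. In the trees with the higher Ash numbers these values of rho were 0.071 and 0.076, and in the 40 later trees they were -0.172 and -0.222. In those 40 trees the rho of Fe_g8233 with Fe_g19537, of the opposed block, was 0.184, against -0.402 over all trees (permutation p = 1e-05, adjusted p = 1.2e-05). In the earlier trees its rho with Fe_g19537 was -0.588.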

How the data were processed

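Leaf RNA of 182 Danish ash trees was sequenced in an earlier study. For the present series the authors trimmed the reads with Trimmomatic, estimated transcript abundance with Salmon 0.8 on coding sequences predicted in a long-read ash assembly, and read the output into R 4.3.3 through tximport. The deposited unit is TPM, in which the authors had already accounted for coding length and which adds up to 1000000 per tree. TPM keeps no depth, so the reads behind a value are unknown and no counting interval is given. The coding sequences were not used here. No trees had identical values.

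Trees formed 1 group, as the labels give no other. The order of the list, in which Ash numbers restart for the last 40 trees, was used only to recompute results within each stretch. Damage scores of the trees were not used here, so the regression on damage that the study ran has no counterpart, and relatedness among trees was not modelled. The p-values measure the spread between these trees only.

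The 100 genes, their lead genes and the tests were chosen with earlier results of these data known. The genes named are the 10 of highest mean TPM, the 5 of highest and lowest CV, ranks 99 to 102, every member that was the most abundant member of a tree, the 3 of highest mean TPM in each block, the 5 closest and 5 most opposed pairs, the 2 genes of highest and lowest r in each fit, the 3 genes most like Fe_g32504 and Fe_g25603 by rho, annotated members and members with adjacent identifiers. Exceptions are stated where they occur. Annotations came from 136 damage-associated genes, of which 1 was a member.

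Spearman's rho was computed on TPM, and blocks came from average linkage on 1 - rho, at a mean rho of 0.5 and at least 3 genes. Co-expression was fitted with limma 3.58.1 (eBayes with trend) on log2(TPM + 1), for genes that reached 1 TPM in 19 or more trees, with Benjamini-Hochberg adjustment. This scale understates changes of low genes. Permutation tests used 100000 resamples (numpy 2.4.6, Python 3.11.15), and the linkage was computed with scipy 1.17.1. The limma procedure was tried on values shuffled over trees for each gene, with known correlations added to some genes. Shuffling removes the correlation between genes, so the trial is no check of the counts called here. A gene counted as split into clusters where the density of log2(TPM + 1) fell under 0.5 of the lower of 2 peaks with at least 18 trees on each side. Alternatives were the order by median or mean log2, median-of-ratios scaling, TPM outside the 100, other pseudocount and filter, Pearson's r, ranks, principal components, other linkage and block thresholds, and sets of trees. Leaving out Ash94 and Ash7 together, the sets of trees before and after the restart, that place as a covariate, and the adjustment for 1 component were chosen after seeing the data.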

Additional observations from a re-analysis of the deposited data

How the results depend on the processing

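With 5 principal components of all genes as covariates, pairs of members with a rho of 0.5 or more numbered 299, those with -0.5 or less numbered 9, and 43 members were in blocks. In limma with these covariates, 16 members rose and 3 fell with Fe_g32504, and of all genes 733 rose and 1227 fell. With Fe_g25603, 1 member rose and 0 fell, with 8 at an unadjusted p under 0.05, and of all genes 4 rose and 7 fell. With 1 component the pairs numbered 744 and 65. In limma 11 members rose and 4 fell with Fe_g32504, and 6 rose and 0 fell with Fe_g25603, with 17 at an unadjusted p under 0.05. Of all genes 8.64% rose and 2.84% fell with Fe_g32504, and 1.63% rose and 0.523% fell with Fe_g25603. In the earlier trees, 21 members rose with Fe_g32504, and of all genes 3183 rose and 3642 fell. In the 40 later trees, 3063 of all genes fell with Fe_g32504, while 16 members and 3171 of all genes rose with Fe_g25603. In the trees with Ash numbers below the median, 4405 of all genes fell with Fe_g32504. Among values for single genes or pairs, 442 kept direction and call, 21 lost and 2 gained a call, and 15 changed sign. The slopes of Fe_g25603 with Fe_g32504 and of Fe_g32504 with Fe_g25603 turned to 0.25 and 0.16 with 5 components, to 0.34 and 0.24 with 1 component and to 0.0054 and 0.0023 in the earlier trees. In the earlier trees rho of Fe_g32504 turned to 0.034 with Fe_g25603 and 0.029 with Fe_g25602.2. In the 40 later trees rho of Fe_g8233 turned to 0.044 with Fe_g32504, -0.172 with Fe_g25603, -0.222 with Fe_g25602.2, -0.0058 with Fe_g14288, 0.184 with Fe_g19537 and 0.092 with Fe_g34637. By Pearson's r the relation of Fe_g8233 with Fe_g25602.2 was -0.0025. The cause of these shifts was not tested, and the 40 later trees are also fewer. Of the 100 genes 95 stayed when ordered by median TPM or by mean log2(TPM + 1), 99 after median-of-ratios scaling, 97 in the odd-numbered and 98 in the even-numbered trees, 99 without Ash94 and Ash7, 93 in the earlier trees and 81 in the 40 later trees. Leaving out each tree in turn kept 99 to 100 members, and 87 trees changed the set by 1 gene. Complete linkage gave 7 blocks with 77 members in place of 3 with 82, and at most 32 of the 41 genes and 19 of the 37 genes then shared a block. At a mean rho of 0.6 these numbers were 36 and 30. The log2 median-of-ratios factors ran from -0.56 to 0.21, and 67 trees lay beyond 0.1 either way. No paired analysis was possible because the labels give 1 group of trees with no shared replicate numbers. Depth is unknown, so its effect on low trees could not be measured.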
